A study of Homo sapiens with 8 samples.

Results

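The SOX genes encode transcription factors that share a DNA-binding HMG box and are sorted into groups by the likeness of that box. The genes described here are 10 members of this family, SOX2, SOX4, SOX5, SOX6, SOX8, SOX9, SOX10, SOX11, SOX12 and SOX13, taken as every probe of the array whose gene symbol is one of these names. They are 10 of the 31426 gene symbols and 17 of the 47322 probes that were measured. Of the members, 6 have 1 probe and 4 have several.

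SOX factors bend DNA at short AT-rich sites and act mostly with a partner factor. SOX2, of the SOXB1 group, keeps neural progenitors and pluripotent cells undifferentiated, and the SOXC factors SOX4, SOX11 and SOX12 are active in developing neurons, including those of the sympathetic lineage. The SOXE factors SOX8, SOX9 and SOX10 act in the neural crest, the embryonic source of the sympathetic nervous system from which neuroblastoma arises, and in its glial, pigment and cartilage derivatives. The SOXD factors SOX5, SOX6 and SOX13 carry no activation domain of their own, and SOX5 and SOX6 work beside SOX9 in cartilage.

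The transcripts of 8 RNA samples were read on Illumina HumanHT-12 v4 arrays, 1 array each. The arrays fall into 4 groups of 2 arrays: SH-SY5Y cells with a scrambled shRNA (control), SH-SY5Y cells with a TRPM7 shRNA, SH-EP2 cells with a scrambled shRNA, and SH-EP2 cells with a TRPM7 shRNA. SH-SY5Y, a neuroblastic line, and SH-EP2, an epithelial-like line, are both subclones of the human neuroblastoma line SK-N-SH, so that each cell type is represented by 1 line. All groups had been stably transduced with a lentiviral shRNA. On these arrays a single TRPM7 shRNA was used, so effects of its sequence on other transcripts cannot be told apart from those of TRPM7. For SH-EP2 cells the paper also reports migration assays with another TRPM7 shRNA. TRPM7 is a cation channel fused to a kinase. The comparisons ask which SOX genes differed after knockdown in each line, whether the knockdown effects differed between lines, and which SOX genes differed between the control lines. The sources do not say whether the 2 arrays of a group come from separate cultures, so p-values measure only the spread between these arrays, which may be technical.

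The number of arrays limits the precision. Between 40.8% and 44.2% of the probes were detected per array, at a detection p under 0.05, and replicate arrays correlated at 0.98 over all probes. The TRPM7 probe stayed undetected throughout, with a detection p of 0.0753 to 0.201, so the knockdown cannot be read from these data. The paper measured TRPM7 mRNA in both lines separately, by quantitative RT-PCR. The lines carried their markers: 10 of 11 noradrenergic genes were lower and 9 of 10 mesenchymal genes were higher in SH-EP2 than in SH-SY5Y control cells. Of all gene symbols, 30.1% differed between these control lines in either direction. The remaining mesenchymal marker, VIM, was 1.14-fold lower in SH-EP2. Levels below are log2 of the background-corrected, quantile-normalized signal of a probe, and differences are differences of these levels. In such bulk RNA, fewer cells that express a gene and less RNA per cell cannot be told apart.

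The RefSeq table holds a promoter window for 6 of the 10 members, SOX2, SOX4, SOX5, SOX6, SOX12 and SOX13. The 250 bases before the start are shown for SOX2 and SOX4, the members that differed after TRPM7 knockdown in SH-SY5Y cells and for which a window was held, and for SOX12, which differed between the lines. All lie on the plus strand of GRCh38.p14, SOX2 at chr3:181711675-181711924, SOX4 at chr6:21593501-21593750 and SOX12 at chr20:325302-325551. Capitals mark CCAAT, the core of the CCAAT box, on either strand (ATTGG on the other), and, in SOX12, the POU octamer ATGCAAAT.
SOX2: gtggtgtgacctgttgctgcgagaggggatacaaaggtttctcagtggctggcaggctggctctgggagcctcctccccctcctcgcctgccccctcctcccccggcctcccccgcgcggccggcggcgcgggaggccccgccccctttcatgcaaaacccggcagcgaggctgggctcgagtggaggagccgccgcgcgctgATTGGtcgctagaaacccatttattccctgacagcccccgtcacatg
SOX4: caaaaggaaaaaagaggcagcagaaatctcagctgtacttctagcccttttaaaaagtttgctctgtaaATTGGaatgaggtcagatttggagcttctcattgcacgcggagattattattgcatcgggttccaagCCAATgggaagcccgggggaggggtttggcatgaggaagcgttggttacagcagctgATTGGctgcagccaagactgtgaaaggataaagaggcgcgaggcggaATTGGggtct
SOX12: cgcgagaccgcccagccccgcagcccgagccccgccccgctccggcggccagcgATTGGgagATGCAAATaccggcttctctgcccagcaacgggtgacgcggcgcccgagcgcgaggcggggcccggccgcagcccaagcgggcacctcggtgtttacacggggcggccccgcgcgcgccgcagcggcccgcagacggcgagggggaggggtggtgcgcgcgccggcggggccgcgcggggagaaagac
The SOX4 window held 4 matches to CCAAT, at 10, 57, 114 and 181 bases before the start, and the SOX2 and SOX12 windows held 1 each, at 47 and 196 bases. CCAAT stood in 6 of the 10 windows of members, including some of SOX6. It stood in 32% of 35116 such windows of all genes. The octamer, the site of the POU factors with which SOX proteins often pair, stood in 1.63% of them, and among the members' windows in that of SOX12, at 188 bases before the start. ACAAT, the core of the SOX site (ATTGT on the other strand), stood in 24.6% of all windows, and CAGGTG, an E-box bound by SNAI factors (CACCTG on the other strand), in 17.5%. ACAAT stood in 6 of the 10 windows of members, all 5 of SOX6 and the 1 of SOX5, and CAGGTG in none of them. The SOX13 window, which is not shown although SOX13 also differed between the lines, held none of the 4 motifs. GC made up 68.8%, 48.8% and 79.2% of the bases in SOX2, SOX4 and SOX12.

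A first question was which members were detected. SOX4, SOX9 and SOX13 were detected on all 8 arrays. SOX2 and SOX11 were detected on all 4 SH-SY5Y arrays and on no SH-EP2 array, and SOX12 on 7 of 8 arrays. SOX5, SOX6, SOX8 and SOX10 had no probe detected on both arrays of any group. Over all members and arrays, 87 of 136 probe readings were not detected. The map of detection by probe and array shows rows that are filled, filled in SH-SY5Y alone, or blank. Other rows lie in between: SOX12 was detected on 7 arrays, SOX8 on 4, and 1 probe each of SOX5 and SOX6 on 1.

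**Figure D1:**
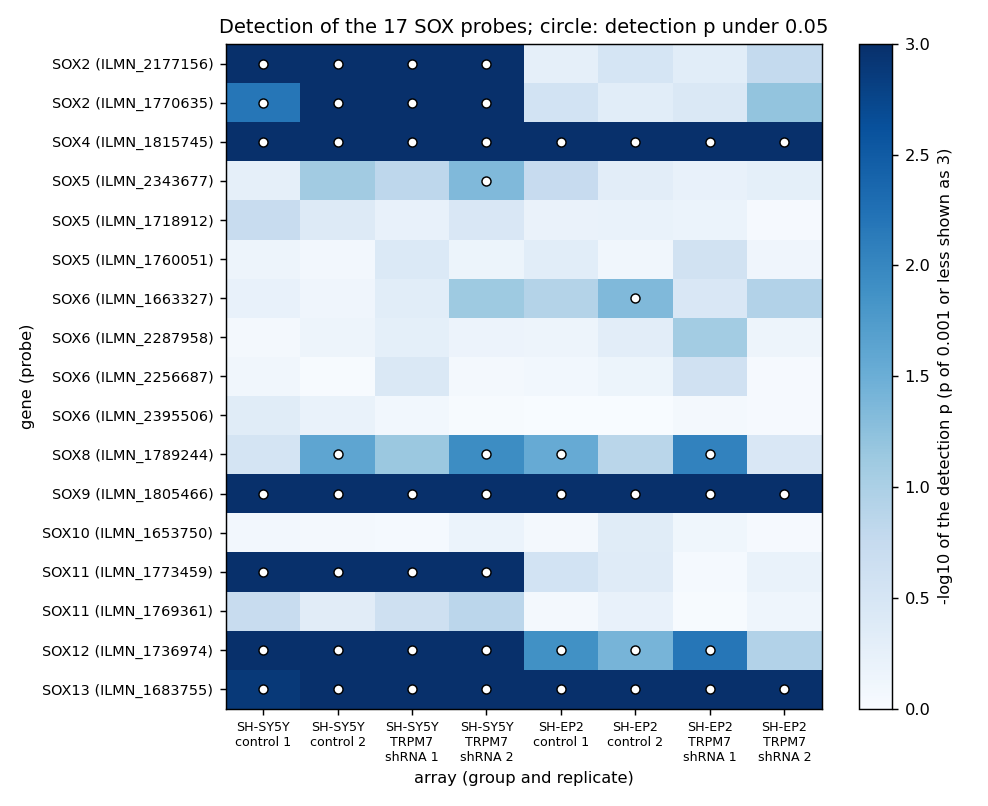
Detection of the 17 SOX probes (rows) on the 8 arrays (columns, named by group and replicate); colour gives −log10 of the detection p, capped at 3, and a circle marks a detection p under 0.05. SOX4, SOX9 and SOX13 carry circles on all 8 arrays, SOX2 on the 4 SH-SY5Y arrays, and SOX10 on none.

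After TRPM7 knockdown in SH-SY5Y cells, SOX2 rose and SOX4 fell, and the other 8 members did not pass the test. In SH-EP2 cells SOX9 rose and the other 9 members did not pass. The counts are 2 of 10 members in SH-SY5Y cells, against 2.58% of all gene symbols, and 1 of 10 in SH-EP2 cells, against 3.68%. The median log2 difference of the members was 0.17 in SH-SY5Y and -0.15 in SH-EP2 cells, with medians of 0.00 and 0.01 over all gene symbols. The effects of knockdown differed between the lines for 2 of 10 members, SOX4 and SOX9, against 1.80% of all gene symbols. Between the control lines 5 of 10 members differed, against 30.1% of all gene symbols: SOX2, SOX4, SOX11 and SOX12 were lower and SOX13 was higher in SH-EP2. The comparison of lines uses the same control arrays as the knockdown comparisons. The member median there was -0.05, with -0.02 over all gene symbols.

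**Figure D2:**
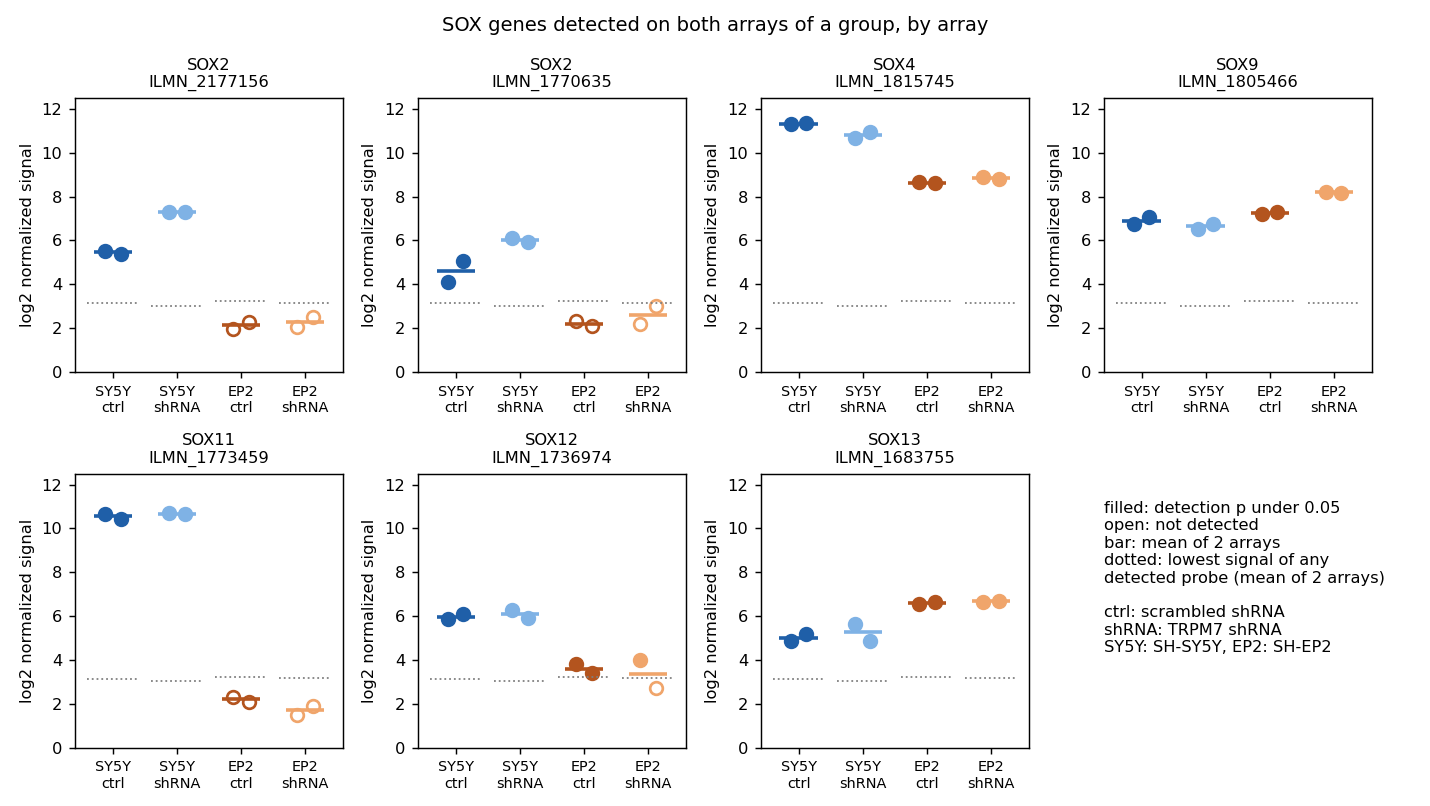
Log2 normalized signal (vertical axis) of the SOX genes detected on both arrays of a group, by array and group; filled points were detected, open points were not, bars are means of 2 arrays and dotted lines mark the lowest signal of any detected probe. SOX2 sits higher in the TRPM7 shRNA arrays than in the control arrays of SH-SY5Y, SOX9 higher in those of SH-EP2, and SOX11 is at 10.44 to 10.70 in SH-SY5Y and not detected in SH-EP2.

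SOX2 was the SOXB1 factor that was detected; SOX1 and SOX3, of the same group, were not detected on any array. The brighter of the SOX2 probes (ILMN_2177156) had raw signals of 162 and 137 in SH-SY5Y control cells, 282 and 304 in SH-SY5Y TRPM7 shRNA cells, and 109 to 116 in the 4 SH-EP2 arrays. On the log2 scale these were 5.53 and 5.39 in the SH-SY5Y control arrays and 7.30 and 7.31 in the TRPM7 shRNA arrays. Both knockdown arrays thus lay above both control arrays, by more than the spread within either pair. The difference was 1.84 (SE 0.342, 95% interval 1.12 to 2.55), or 3.58-fold, with an adjusted p of 0.00411 by limma. It was 1.45 with neqc, 1.00 with normexp and 0.78 with no background correction. The call rested on all of the SH-SY5Y arrays but 1: without control replicate 2, shRNA replicate 1 or shRNA replicate 2 the difference was 1.77, 1.85 and 1.84 with adjusted p of 0.0625, 0.0981 and 0.0856, where the range over all 19 alternatives was 1.66e-08 to 0.113.

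The other SOX2 probe (ILMN_1770635) read 4.12 and 5.09 in SH-SY5Y control arrays and 6.09 and 5.92 in TRPM7 shRNA arrays. The pairs did not overlap here either, and the difference of 1.41 did not pass the test (adjusted p = 0.131, limma). In SH-EP2 cells neither SOX2 probe was detected with or without TRPM7 shRNA, so no fold is given there. The difference between the knockdown effects of the lines was 1.68 for the brighter probe and did not pass (adjusted p = 0.116, limma); with normexp, neqc or no background correction it was 0.96, 1.40 and 0.76 and passed, with adjusted p of 6.53e-05, 0.00745 and 1.13e-05. Over its 18 alternatives the adjusted p ranged from 1.13e-05 to 0.362. Between control lines, on the RMA-corrected scale, SOX2 was at least 4.72-fold lower in SH-EP2 by the brighter probe (adjusted p = 1.28e-07, limma) and at least 2.60-fold lower by the other (adjusted p = 0.000194, limma). Such a bound sets the mean of the detected group against the lowest signal of any detected probe on the arrays of the undetected group, or the probe's own signal where that was higher, and it holds for that scale alone. The log2 difference of the brighter SOX2 probe between control lines was -1.62 with neqc, -0.82 with normexp and -0.54 with no background correction, and passed in each.

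SOX4, SOX11 and SOX12 are the SOXC factors, which promote the expression of neuronal genes in immature neurons. The SOX4 probe (ILMN_1815745) read 11.33 and 11.34 in SH-SY5Y control arrays, 10.67 and 10.96 in SH-SY5Y TRPM7 shRNA arrays, 8.66 and 8.61 in SH-EP2 control arrays and 8.87 and 8.80 in SH-EP2 TRPM7 shRNA arrays. On this normalized scale the knockdown arrays lay below the controls in SH-SY5Y and above them in SH-EP2, with no overlap in either line. The raw signals overlapped in SH-SY5Y, at 2885.7 and 2184.1 in control arrays and 1748.3 and 2375.5 in TRPM7 shRNA arrays. In SH-SY5Y cells SOX4 fell by 0.52 on the log2 scale (SE 0.0999), or 1.43-fold, with an adjusted p of 0.00567 by limma. Without shRNA replicate 1 the fall was -0.37 and did not pass (adjusted p = 0.12, within 0.000639 to 0.412 over the 19 alternatives). Under median scaling it was -0.40 with an adjusted p of 0.124.

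In SH-EP2 cells the SOX4 difference was 0.20 (95% interval -0.01 to 0.41), which did not pass (adjusted p = 0.421, limma). The difference between these effects, SH-SY5Y minus SH-EP2, was -0.72 (SE 0.141) and passed with an adjusted p of 0.00862 by limma. It was -0.58, -0.69 and -0.68 without SH-SY5Y shRNA replicate 1, SH-EP2 control replicate 2 and SH-EP2 shRNA replicate 1, with adjusted p of 0.0513, 0.057 and 0.0612, where its 18 alternatives ranged from 0.00135 to 0.448. The level of SOX4 was therefore highest in SH-SY5Y control cells, then SH-SY5Y TRPM7 shRNA cells, then SH-EP2 TRPM7 shRNA cells, and lowest in SH-EP2 control cells, with the last pair of neighbours not separated by the test. The arrays of the middle pair did not overlap, and that difference was not tested. SH-EP2 control cells had 6.47-fold less SOX4 than SH-SY5Y control cells (log2 difference -2.69, adjusted p = 1.81e-14, limma).

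SOX11 had the largest difference between lines among the members. Its brighter probe (ILMN_1773459) read 10.68 and 10.44 in SH-SY5Y control arrays and 10.70 and 10.66 in SH-SY5Y TRPM7 shRNA arrays, with raw signals of 1213 to 1953. In SH-EP2 cells the raw signals were 104 to 114 and none of the 4 arrays detected it. On the RMA-corrected scale SOX11 was at least 161-fold lower in SH-EP2 than in SH-SY5Y control cells (adjusted p = 2.5e-17, limma). The bound belongs to that scale: the log2 difference was -6.14 with neqc, -4.59 with normexp and -3.89 with no background correction, and passed in each. TRPM7 knockdown in SH-SY5Y cells gave a difference of 0.12 (95% interval -0.30 to 0.54; adjusted p = 0.902, limma). The other SOX11 probe (ILMN_1769361) was not detected on any array, including the SH-SY5Y arrays, and the reason was not tested. SOX11 therefore rests on 1 probe.

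SOX12, the remaining SOXC factor, read 5.86 and 6.09 in SH-SY5Y control arrays and 6.28 and 5.93 in SH-SY5Y TRPM7 shRNA arrays. In SH-EP2 it read 3.80 and 3.39 in control arrays, and 4.01 and 2.72 in TRPM7 shRNA arrays, of which the last was not detected. The arrays of each line with and without TRPM7 shRNA overlapped. The differences after knockdown were 0.13 in SH-SY5Y (adjusted p = 0.947, limma) and -0.23 in SH-EP2 cells (adjusted p = 0.883, limma). SOX12 was 5.20-fold lower in SH-EP2 than in SH-SY5Y control cells (adjusted p = 2.47e-05, limma), a log2 difference of -2.38 that was -1.38 with neqc, -0.72 with normexp and -0.50 with no background correction. All 3 SOXC factors were thus lower in the epithelial-like line.

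SOX5, SOX6 and SOX13 are the SOXD factors. SOX13, which was first studied as an autoantigen and binds TCF factors, read 4.85 and 5.17 in SH-SY5Y control arrays, 5.66 and 4.85 in SH-SY5Y TRPM7 shRNA arrays, and 6.58 to 6.69 in the 4 SH-EP2 arrays. It was the member that was higher in SH-EP2, 3.03-fold above SH-SY5Y control cells (log2 difference 1.60, adjusted p = 2.72e-05, limma). This difference was 1.15 with neqc, 0.71 with normexp and 0.53 with no background correction. After knockdown the differences were 0.25 in SH-SY5Y (adjusted p = 0.804, limma) and 0.06 in SH-EP2 (adjusted p = 0.963, limma).

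SOX5 was read by 3 probes and SOX6 by 4. Of the 24 SOX5 readings 1 was detected, on SH-SY5Y TRPM7 shRNA replicate 2, and of the 32 SOX6 readings 1 was detected, on SH-EP2 control replicate 2, each with a detection p of 0.0455. Their raw signals ran from 92.7 to 121 for SOX5 and from 89.8 to 122 for SOX6, near the background of the arrays (98.3 to 111 in the RMA model). One SOX6 probe (ILMN_2395506) passed between the control lines (adjusted p = 0.0173, limma) but was detected on no array, and no fold is given. With normexp, neqc or no background correction the brightest SOX6 probe (ILMN_1663327) passed between the control lines too. In the main processing that probe had an adjusted p of 0.0594 by limma, and it was detected on 1 array.

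SOX8, SOX9 and SOX10 are the SOXE factors. SOX9, which specifies neural crest and cartilage cells, read 6.73 and 7.05 in SH-SY5Y control arrays, 6.52 and 6.76 in SH-SY5Y TRPM7 shRNA arrays, 7.22 and 7.28 in SH-EP2 control arrays and 8.23 and 8.15 in SH-EP2 TRPM7 shRNA arrays. Both SH-EP2 knockdown arrays lay above all other arrays, while in SH-SY5Y the arrays with and without TRPM7 shRNA overlapped. In SH-EP2 cells SOX9 rose by 0.94 (SE 0.158, 95% interval 0.61 to 1.27), or 1.92-fold, with an adjusted p of 0.00124 by limma. Leaving out any 1 of the 8 arrays kept this call, with differences of 0.90 to 0.98. It was lost by eBayes without an intensity trend (adjusted p = 0.153) and by the per-probe test without eBayes (adjusted p = 0.145), where the range over its 19 alternatives was 6.76e-06 to 0.153.

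In SH-SY5Y cells the SOX9 difference was -0.25 (95% interval -0.58 to 0.08; adjusted p = 0.623, limma). The difference between the effects, SH-SY5Y minus SH-EP2, was -1.19 (SE 0.223) and passed with an adjusted p of 0.00591 by limma. Without SH-EP2 shRNA replicate 1 it was -1.15 with an adjusted p of 0.0508, where its 18 alternatives ranged from 0.000122 to 0.265. The control lines were not separated in SOX9 (log2 difference 0.36, adjusted p = 0.113, limma); without SH-SY5Y control replicate 2 the difference was 0.52 and passed (adjusted p = 0.0394, within 0.0394 to 0.512 over the alternatives). The raw SOX9 signal was 255 to 268 in SH-EP2 control arrays and 399 to 416 with TRPM7 shRNA.

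SOX10, which drives the glial and pigment lineages of the crest, was not detected on any array, with no detection p below 0.451. SOX8, its close relative, was detected on 1 array of each group and 4 of 8 in all, with raw signals of 107 to 131 and a lowest detection p of 0.00909. Neither passed in any comparison. The plot of knockdown differences sets the 10 members side by side with their 95% intervals, of which that of SOX8 was the widest.

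**Figure D3:**
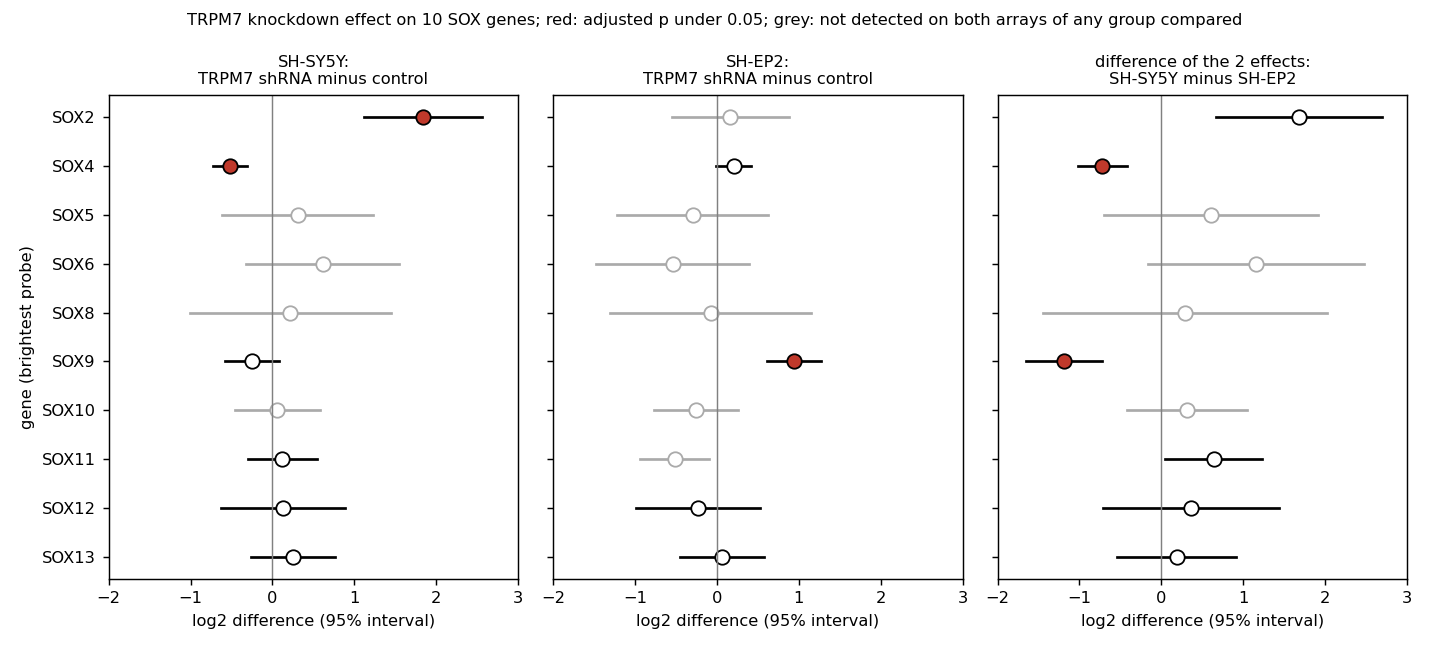
Log2 differences after TRPM7 knockdown (points, horizontal axis) with 95% intervals (lines) for the brightest probe of 10 SOX genes (rows), in SH-SY5Y, in SH-EP2, and as the difference of the 2 effects; red marks an adjusted p under 0.05 and grey a gene not detected on both arrays of any group compared. SOX2 lies at 1.84 and SOX4 at -0.52 in SH-SY5Y, SOX9 at 0.94 in SH-EP2, and SOX4 and SOX9 lie at -0.72 and -1.19 in the right panel.

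**Figure D4:**
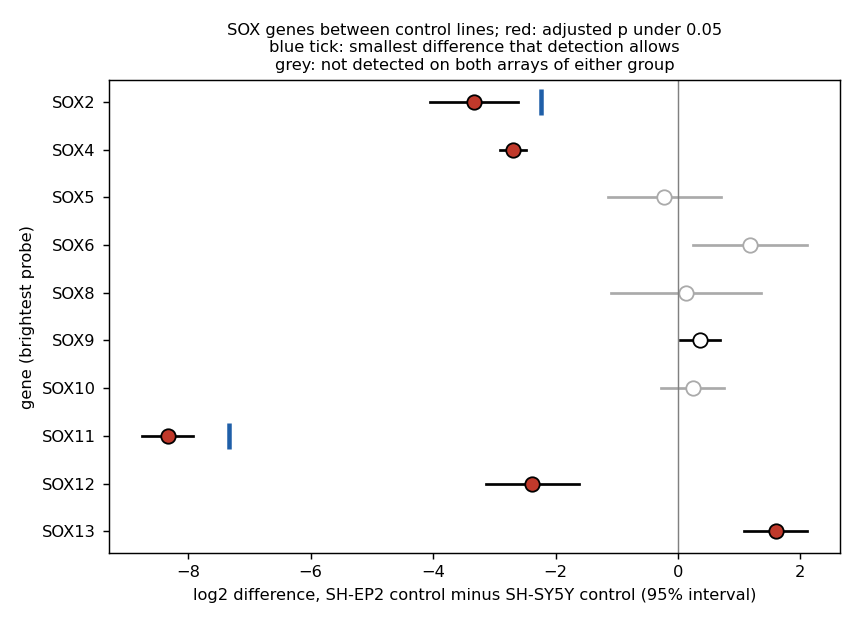
Log2 difference of SH-EP2 control minus SH-SY5Y control (points, horizontal axis) with 95% intervals for 10 SOX genes (rows); red marks an adjusted p under 0.05, grey a gene not detected on both arrays of either group, and blue ticks the smallest difference that detection allows. SOX2, SOX4, SOX11 and SOX12 lie to the left of 0 and SOX13 lies to the right, at 1.60.

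The genes whose levels ran most like those of the members that differed after knockdown were found by the root mean square of the difference between centred log2 levels over the 8 arrays, among 20568 probes. These genes were chosen on the same arrays that gave the knockdown differences. Differences like those of the members therefore follow from the choice. For SOX2 they were PCDH17, a protocadherin, at 0.19, SYBU (listed under its older name GOLSYN) at 0.27, and the SOXF factor SOX7 at 0.30. PCDH17 and SYBU rose after knockdown in SH-SY5Y cells by 1.86 (adjusted p = 0.0011, limma) and 1.99 (adjusted p = 0.00161, limma). For SOX4 they were RAP1GAP2 (listed as GARNL4) at 0.10, TGIF2LX at 0.14 and TCEAL7 at 0.15, of which TCEAL7 passed in SH-SY5Y cells with -0.49 (adjusted p = 0.0354, limma). For SOX9 they were RNU1-5 at 0.10, XDH, which encodes xanthine dehydrogenase, at 0.14, and the ribosomal protein gene RPS29 at 0.15. RNU1-5 and RPS29 passed in SH-EP2 cells, with 0.75 (adjusted p = 0.0196, limma) and 0.67 (adjusted p = 0.0024, limma).

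Lists of genes that act with SOX factors were read in the same fit. Of 14 neural crest specifiers, 1 rose and 1 fell in SH-SY5Y cells and 2 fell in SH-EP2 cells after knockdown. The shares over all gene symbols against which the counts of these lists stand are again 2.58% in SH-SY5Y and 3.68% in SH-EP2. SNAI2, a zinc finger repressor that works beside SOX9 in crest cells, read 7.29 and 7.15 in SH-SY5Y control arrays. In SH-SY5Y TRPM7 shRNA arrays SNAI2 read 4.15 and 4.74, a fall of 6.82-fold on the RMA-corrected scale (adjusted p = 1.15e-08, limma). The raw SNAI2 signals were 283 and 217 in SH-SY5Y control arrays, and 134 and 148, near background, in SH-SY5Y TRPM7 shRNA arrays. In SH-EP2 SNAI2 read 9.39 and 9.23 in control and 7.91 and 7.92 in TRPM7 shRNA arrays, a fall of 2.63-fold (adjusted p = 6.35e-05, limma). The raw signals there were 814 and 673 in control and 356 and 357 in TRPM7 shRNA arrays. SNAI2 fell in the line where SOX9 rose and in the line where SOX9 did not pass. A relation between SNAI2 and SOX9 was not tested. MSX1, a homeobox factor of the crest border, rose by 1.45 in SH-SY5Y (adjusted p = 0.00424, limma). It was detected on 1 of the 2 SH-SY5Y control arrays. Its raw signals, near background, were 123 and 102 in SH-SY5Y control and 146 and 138 in SH-SY5Y TRPM7 shRNA arrays. TWIST1, a bHLH factor, fell by 0.37 in SH-EP2 (adjusted p = 0.0117, limma). The list median was 0.13 in SH-SY5Y and -0.07 in SH-EP2.

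None of 14 glial and melanocyte genes under SOXE factors passed in either knockdown, and 4 of them were detected on both arrays of a group. Their medians were 0.10 in SH-SY5Y and -0.0042 in SH-EP2. Of 11 cartilage matrix genes under SOX9, SOX5 and SOX6, none passed in SH-SY5Y cells and 1, HAPLN1, which encodes a link protein of the matrix, fell in SH-EP2 cells. HAPLN1 read 7.62 and 7.86 in SH-EP2 control and 6.48 and 6.33 in SH-EP2 TRPM7 shRNA arrays. This was a fall of 1.33 on the log2 scale (adjusted p = 0.0164, limma), in the line where SOX9 rose. A relation between HAPLN1 and SOX9 was not tested. The cartilage list had medians of 0.22 in SH-SY5Y and -0.29 in SH-EP2, with 5 of its genes detected on both arrays of a group. Of the 11 genes, 3 were detected on both SH-SY5Y control arrays and 2 on both SH-SY5Y TRPM7 shRNA arrays. In SH-EP2 these were 2 in control and 2 in TRPM7 shRNA arrays. The medians therefore rest mostly on undetected probes.

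Of 9 neuronal genes linked to SOXC factors, 1 rose and 1 fell in each line. In SH-SY5Y cells DCX, a microtubule protein of migrating neurons, rose by 0.93 (adjusted p = 0.0352, limma) and STMN2, a stathmin of growing axons, fell by 0.58 (adjusted p = 0.0215, limma). In SH-EP2 cells MAP2, a dendritic microtubule protein, rose by 1.14 (adjusted p = 0.0116, limma) and TEAD2, a TEA-domain transcription factor, fell by 0.30 (adjusted p = 0.0489, limma). The MAP2 value belongs to the RMA-corrected scale. Raw MAP2 signals, near background, were 143 and 126 in SH-EP2 control and 161 and 158 in SH-EP2 TRPM7 shRNA arrays. The list medians were -0.01 in SH-SY5Y and 0.15 in SH-EP2. Between the control lines, where 30.1% of all gene symbols passed, all 9 were lower in SH-EP2, with a median of -4.97. SOX4, SOX11 and SOX12 were lower there too. On the RMA-corrected scale STMN2 was at least 1220-fold lower and TUBB3, the smallest difference, 1.88-fold lower.

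Of 14 neural progenitor genes around SOX2, 2 fell in SH-SY5Y cells, and 1 rose and 1 fell in SH-EP2 cells. LFNG, which modifies Notch receptors, fell by 0.85 in SH-SY5Y (adjusted p = 0.000382, limma) and by 0.62 in SH-EP2 (adjusted p = 0.0066, limma), and NOTCH1 fell by 0.82 in SH-SY5Y (adjusted p = 0.02, limma). NES, the intermediate filament nestin, read 4.43 and 4.77 in SH-EP2 control and 5.74 and 5.61 in SH-EP2 TRPM7 shRNA arrays. This was a rise of 1.08 on the RMA-corrected scale (adjusted p = 0.000369, limma). Raw NES signals, near background, were 137.5 and 136.6 in SH-EP2 control and 169 and 163 in SH-EP2 TRPM7 shRNA arrays. In SH-SY5Y, where SOX2 rose, the NES difference was -0.16 (adjusted p = 0.814, limma). A relation between NES and SOX2 was not tested. The list medians were -0.15 in SH-SY5Y and -0.06 in SH-EP2. Of the 4 TCF and LEF factors, which also bind DNA by an HMG box, none passed in SH-SY5Y. LEF1 fell at least 3.20-fold in SH-EP2 cells on the RMA-corrected scale (adjusted p = 2.76e-05, limma). Its raw signals were 148 and 135 in SH-EP2 control arrays. In the SH-EP2 TRPM7 shRNA arrays, which no longer detected it, they were 117 and 121.

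**Figure D5:**
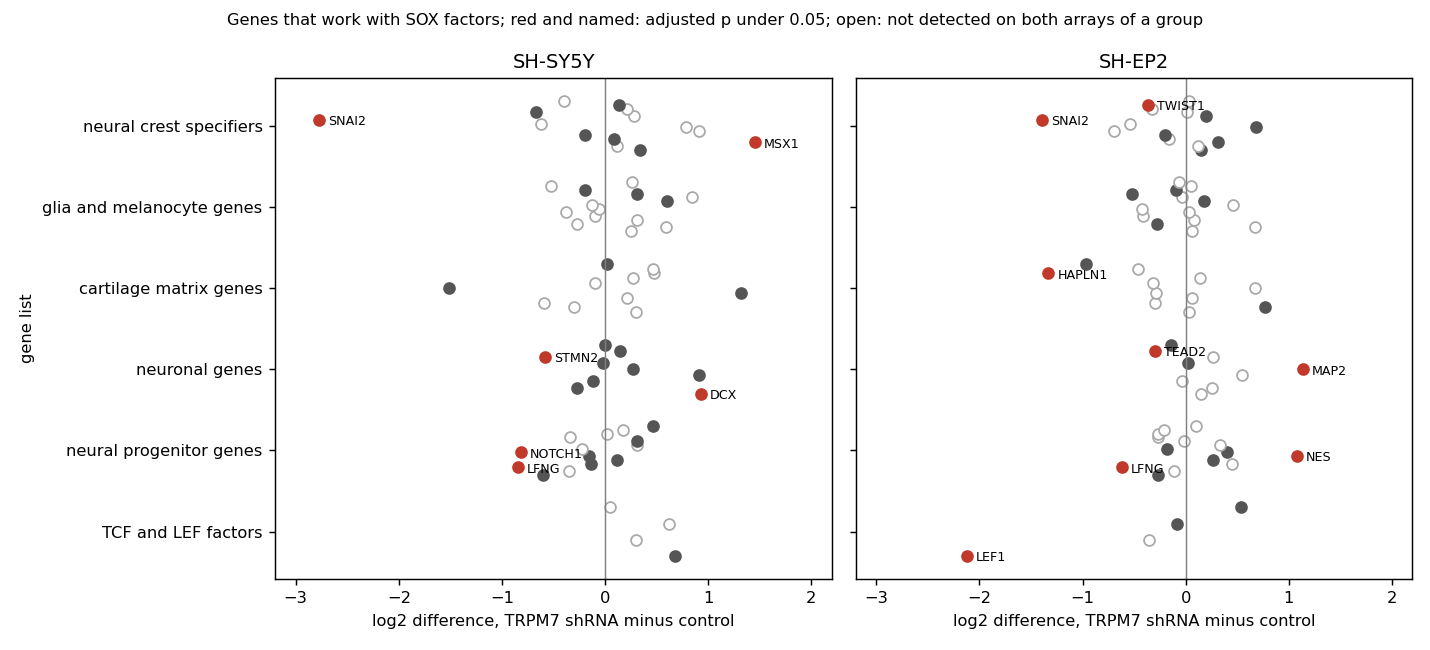
Log2 difference after TRPM7 knockdown (horizontal axis) of each gene (points) in 6 lists of genes that act with SOX factors (rows), in SH-SY5Y (left) and SH-EP2 (right); red points, which are named, had an adjusted p under 0.05 and open points were not detected on both arrays of a group. SNAI2 and LFNG are red on the left of 0 in both panels, and no glial or melanocyte gene is red.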

How the data were processed

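The authors used GenomeStudio (2011.1, from the submitters' processing notes) to turn scanned beads into a signal intensity and a detection p-value for each of 47322 probes, and deposited the linear intensities before normalization. The annotation build is not given in the sources used here. Arrays were grouped by the line and shRNA in their labels. Background was removed per array by the RMA model, followed by quantile normalization of the 8 arrays and log2, with all probes kept. limma 3.58.1 in R 4.3.3 was fitted on 4 group means (eBayes with an intensity trend), with Benjamini-Hochberg adjustment over all probes, two-sided and at 0.05. A gene was read from its brightest probe; counts over all genes use the same reading. A fold against an undetected group is a bound, which holds for the RMA-corrected scale alone. Scripts were tested on simulated data. Named were all members, the other SOX genes detected on both arrays of a group, TRPM7, up to 4 genes per list in order of size of the fitted change with an adjusted p under 0.05, and the 3 genes most like a member that differed. The members and lists were chosen with earlier results of these data known. The CCAAT and octamer motifs were chosen after the windows had been read. Promoter windows are those of RefSeq (GRCh38.p14). The same replicate numbers do not pair arrays. Alternatives were normexp (offset 50), neqc (offset 16), no background correction, median scaling, a filter for detection on 2 or more arrays, eBayes without a trend, a per-probe test without eBayes, each line normalized and fitted alone, a replicate block, the mean over probes of a gene, each array left out and, added after the data were seen, a crossed block.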

Additional observations from a re-analysis of the deposited data

Results flagged for a closer look

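The knockdown effects of SOX4 and SOX9 differed between the lines by a test of the difference itself. For SOX4 the effect in SH-SY5Y minus that in SH-EP2 was -0.72 (adjusted p = 0.00862, limma). On the normalized scale both SOX4 knockdown arrays lay below both control arrays in SH-SY5Y and above them in SH-EP2. The raw SOX4 signals overlapped in SH-SY5Y. For SOX9 the difference of the effects was -1.19 (adjusted p = 0.00591, limma), with an increase in both SH-EP2 knockdown arrays and overlapping arrays in SH-SY5Y. With 2 arrays per group, no array could be tested as lying apart from its group.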

How the results depend on the processing

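The 5 members that differed between lines stayed at 5 or 6 under each alternative; SOX6 was the added member with normexp, neqc or no background correction, and SOX9 without SH-SY5Y control replicate 2. The other counts changed. After knockdown in SH-SY5Y, 2 members passed, but 1 (SOX2, higher) under median scaling, 0 by eBayes without an intensity trend and 0 by the per-probe test without eBayes, and 0 to 2 when 1 array was left out. In SH-EP2, 1 member passed, 0 without the trend and 0 by the per-probe test, and 1 with any array left out. The effects differed for 2 members, 1 under median scaling, 0 without the trend, 0 by the per-probe test, 3 with normexp, neqc or no background correction, and 0 to 2 with 1 array left out. Without the trend SOX2, SOX4 and SOX9 had adjusted p of 0.0638, 0.412 and 0.153 in the line where each had passed, and their full ranges over 19 alternatives were 1.66e-08 to 0.113, 0.000639 to 0.412 and 6.76e-06 to 0.153.

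Over all probes 1003 and 1433 passed in SH-SY5Y and SH-EP2 and 670 between effects; without the trend these were 64, 102 and 23, and by the per-probe test 50, 103 and 15. With each line fitted alone, SH-SY5Y gave 854 and SH-EP2 gave 2589. Median scaling moved the median SH-SY5Y difference of probes detected on all arrays from 0.01 to 0.15.

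Of 406 values recomputed for single members, 376 kept their direction and their side of the threshold, 20 lost and 4 gained it, and 6 changed sign, none of them past the threshold. These came from leaving out 1 array: in SH-SY5Y, SOX11 ranged from -0.0004 to 0.24, SOX12 from -0.04 to 0.30 and SOX13 from -0.16 to 0.65; in SH-EP2, SOX12 ranged from -0.88 to 0.41; and between the effects SOX12 ranged from -0.28 to 1.01 and SOX13 from -0.22 to 0.59. No background correction made differences smaller, such as 0.78 for SOX2 in SH-SY5Y. The causes were not tested.

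Arrays of the same number did not deviate together (correlation of deviations -0.111 in SH-SY5Y and -0.00442 in SH-EP2 over 14577 probes). The replicate block gave 2, 1, 2 and 5 members and changed no call, and the crossed block in SH-SY5Y, chosen after seeing the data, gave 2, 1, 2 and 5. Signals near background limit SOX5, SOX6, SOX8 and SOX10.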

Other observations

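Among 10 other SOX symbols on the arrays, 4 were detected on both arrays of a group: SOX7, SOX15, SOX18 and SOX30. Of the 10 symbols, none passed in either knockdown or between the effects, and 2, SOX7 and SOX18, differed between the control lines, both lower in SH-EP2. Over all gene symbols, 2.58% passed after knockdown in SH-SY5Y, 3.68% in SH-EP2, 1.80% between the effects and 30.1% between the control lines. SOX7, which acts in blood vessels with SOX18, read 5.25 and 4.95 in SH-SY5Y control and 6.55 and 6.58 in SH-SY5Y TRPM7 shRNA arrays, with no overlap, and its difference of 1.47 did not pass (adjusted p = 0.0531, limma). Its other probe gave 0.97 (adjusted p = 0.333, limma), and neither probe was detected in SH-EP2, where SOX7 was at least 3.67-fold lower than in SH-SY5Y control cells (adjusted p = 8.99e-07, limma). SOX18 read 7.56 and 7.45 in SH-SY5Y control and 6.69 and 6.15 in SH-EP2 control arrays (log2 difference -1.08, adjusted p = 8.75e-05, limma). SOX2OT, the transcript that overlaps SOX2, was not detected on any array.

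Of the 14 neural crest specifiers, 4 were higher and 4 lower in SH-EP2 than in SH-SY5Y control cells, where 30.1% of all gene symbols differed. Among them the AP-2 factors TFAP2A and TFAP2B went in opposite directions. TFAP2C, the remaining AP-2 factor of the list, was detected on no array and did not pass (adjusted p = 0.537, limma). TFAP2B was detected in SH-SY5Y and not in SH-EP2, where it was at least 113-fold lower (adjusted p = 9.25e-17, limma). TFAP2A was detected in SH-EP2, at least 73.5-fold higher, and not in SH-SY5Y (adjusted p = 2.61e-16, limma). Both bounds hold for the RMA-corrected scale alone.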
